A study of Ovis aries with 32 samples.

Results

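The genes described here code for proteins that coat lipid droplets or help to build them. They are the perilipins PLIN1, PLIN2, PLIN3, PLIN4 and PLIN5, together with CIDEC, FITM1, FITM2, BSCL2 and HILPDA. They were chosen by symbol, and the deposited table lists all 10 of them, with 16 transcripts, among 21271 genes and 35219 transcripts. RNA was sequenced from perirenal preadipocytes of near-term sheep fetuses (crossbred Columbia-Rambouillet, singleton pregnancies) and from adipocytes differentiated from such cells. The 8 groups hold 4 libraries each. Preadipocytes came from male controls (MC), female controls (FC), males with fetal growth restriction (MFGR) and females with fetal growth restriction (FFGR), and the corresponding differentiated adipocytes are MCD, FCD, MFGRD and FFGRD. Growth restriction came from housing the pregnant ewes in heat, whereas the ewes of the controls were kept at a moderate temperature and given as much feed as the heated ewes ate. The labels number the libraries as replicates and do not say which fetus each came from, so the p-values measure the spread between libraries.

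A lipid droplet is a store of triglyceride surrounded by a single layer of phospholipid and a coat of proteins. Seipin, the product of BSCL2, and the FITM proteins act in the endoplasmic reticulum where droplets form, perilipins cover the droplets and control the access of lipases, and CIDEC joins droplets into larger ones. PLIN1, PLIN4 and CIDEC are known for their expression in fat cells, PLIN5 for tissues that oxidize fat, and PLIN2 and PLIN3 for many cell types.

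The sum of the normalized values per library ranged from 9525000 to 21220000, which stands for about 7792000 to 21300000 reads, and a value of 10 corresponds to 5.55 to 14.4 reads. The 6 tested of 8 adipocyte marker genes were all called higher in the average over the 4 pairs of groups, against 12.4% of all genes. CFD was not tested and stayed low, with a median of 1.12 in preadipocytes and 1.38 after differentiation. The sum of the 7 markers listed in the table ranged from 54.5 to 1435 in preadipocytes and from 332 to 183200 after differentiation. In FCD replicate 4 the adipocyte genes ADIPOQ (8.59) and FABP4 (215) were the lowest of the 16 differentiated libraries. In the same library FKBP5, a glucocorticoid-induced gene chosen after its values were seen, was at 13800, against 101 to 906 in preadipocytes and 4118 to 31700 in differentiated libraries. In 9 libraries the values fell steeply with the genomic span of the transcript (slope below -0.8 on the log2 scale per 10-fold span). These are MCD replicates 2 and 4, FC 2, FCD 2, MFGR 1, MFGRD 1, FFGR 2 and 3 and FFGRD 3. The comparisons were also made without FCD replicate 4 and without these 9 libraries.

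Differentiation was accompanied by higher values of 5 of the 10 genes. Averaged over the 4 pairs of groups (32 libraries), PLIN1, PLIN2, PLIN4, CIDEC and FITM2 were called higher. None of the 8 genes tested was called lower, and PLIN5 and FITM1 were not tested. Genes that reached a value of 10 in 4 or more of the libraries compared were tested, and calls required both an adjusted p-value below 0.05 and a fold change above 1.5. Of the 8 genes tested in this average, 5 were called higher and 0 lower, whereas of all 12737 genes tested 12.4% were called higher, 14.8% lower and 27.2% in either direction. An unadjusted p below 0.05 was reached by the same number of members, 5 of 8, and by 41.9% of all genes. The median log2 fold change of these 8 genes was 1.68 and that of all genes was 0.04. PLIN4 was at most 5.31 in preadipocytes, and CIDEC reached 10 there only in FFGR replicate 3 (18.9). Both thus passed the filter through the differentiated libraries, so their place among the genes tested depended on high values after differentiation. In bulk RNA, a difference in the number of cells that differentiated and a difference in RNA per cell cannot be told apart. Without FCD replicate 4, and also without the 9 libraries with a steep slope, 5 of the 8 genes were called.

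**Figure D1:**
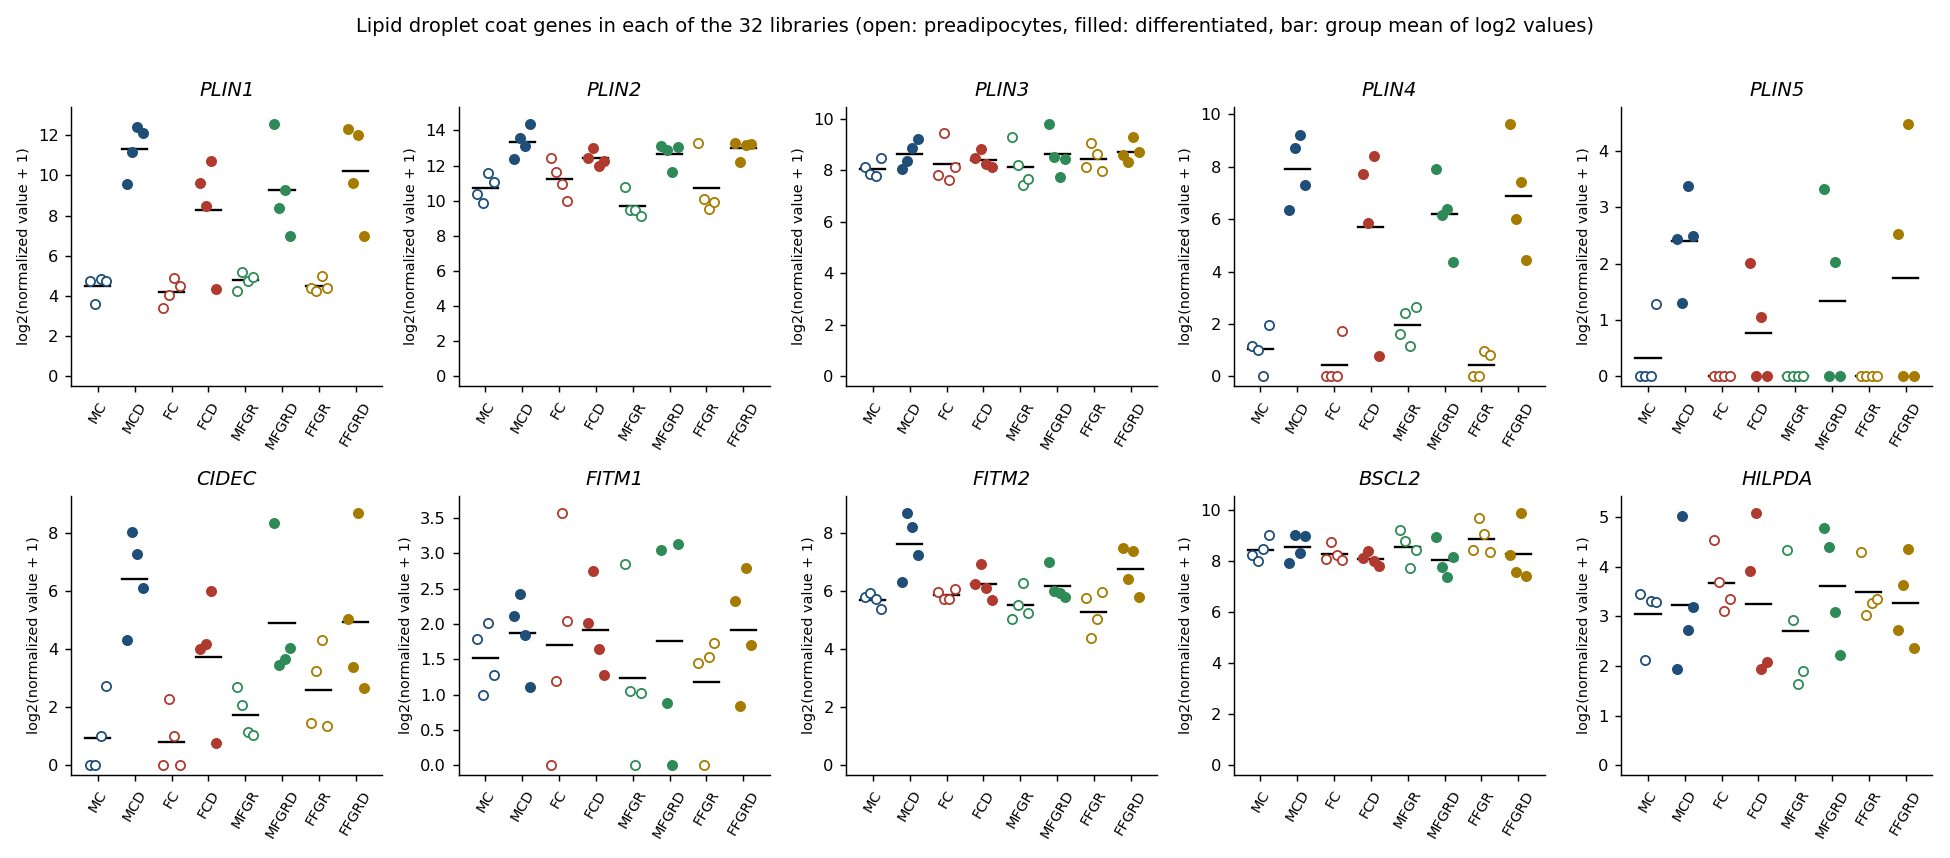
Values of the 10 lipid droplet genes in each of the 32 libraries, as log2(normalized value + 1), by group. Open points are preadipocyte libraries, filled points are differentiated libraries and the bars are group means of the log2 values. PLIN1 and PLIN4 lie above all preadipocyte libraries in 15 of the 16 differentiated libraries, the exception being FCD replicate 4, whereas PLIN3 and BSCL2 overlap between the stages in each group.

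PLIN1 is the main perilipin of fat cells and guards the droplet against lipases. It lies on chromosome 18 of Oar_rambouillet_v1.0, from 18508861 to 18520637. In preadipocytes its value was between 9.62 and 35.7, with a median of 23.7 over 16 libraries. The 4 MCD libraries had values of 747, 2316, 5438 and 4483. In FCD the values were 796, 354, 1699 and 19.0, so 3 libraries were far above the FC libraries (9.62 to 28.7) and replicate 4 was among them. MFGRD had values of 5936, 328, 610 and 124, and FFGRD had 5042, 778, 4085 and 126. Apart from FCD replicate 4, each differentiated library was above all 16 preadipocyte libraries.

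The increase of PLIN1 was 38.9-fold on average over the 4 pairs of groups (95% CI 17.6 to 86, log2 fold change 5.28 ± 0.56 SE, adjusted p = 3.77e-08), and without FCD replicate 4 the log2 fold change was 5.61. It was called in MCD against MC (log2 fold change 6.84 ± 0.59 SE, adjusted p = 0.000492), in MFGRD against MFGR (4.50 ± 1.01 SE, adjusted p = 0.048) and in FFGRD against FFGR (5.71 ± 1.07 SE, adjusted p = 0.0337). The call in MFGRD against MFGR was lost with a pseudocount of 0.1, with no filter, with the stricter filter and in 6 of 8 fits that left out 1 library (adjusted p up to 0.134). In FFGRD against FFGR the call of PLIN1 was lost in 7 of 8 fits that left out 1 library (adjusted p up to 0.118) and without the libraries with a steep slope (log2 fold change 5.23, adjusted p = 0.149). In FCD against FC the log2 fold change of PLIN1 was 4.08 ± 1.19 SE and it was not called (adjusted p = 0.189). Without FCD replicate 4 it was 5.41 ± 0.60 SE and was called (adjusted p = 0.0279). The spread of PLIN1 between libraries was larger after differentiation, with an SD within groups of 2.30 on the log2 scale over 16 libraries against 0.51 in preadipocytes, and the highest differentiated library was 312 times the lowest.

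PLIN4 coats droplets in fat cells and is carried on chromosome 5 from 18099249 to 18105576. PLIN5 lies 7.34 kb before it, from 18081645 to 18091910, and PLIN3 lies 282.5 kb before PLIN5, from 17778323 to 17799133. PLIN4 was listed at 0 in 6 of the 16 preadipocyte libraries and did not exceed 5.31 in the others. Its values were 81.1, 422, 595 and 155 in MCD, 209, 56.3, 339 and 0.703 in FCD, 242, 69.6, 83.5 and 19.8 in MFGRD, and 784, 62.9, 170 and 20.9 in FFGRD. Thus PLIN4 was also above every preadipocyte library in 15 of 16 differentiated libraries and at the level of preadipocytes in FCD replicate 4.

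With each library of a low group taken at 3 reads, PLIN4 was at least 24.6-fold higher after differentiation on average over the 4 pairs of groups (fitted log2 fold change 5.70 ± 0.57 SE, adjusted p = 1.39e-08). The bound was at least 53.4-fold in MCD against MC (fitted log2 fold change 6.87, adjusted p = 0.00108) and at least 29.9-fold in FFGRD against FFGR (6.43, adjusted p = 0.0229). The latter call of PLIN4 was lost in each of the 4 fits that left out an FFGR library and when an FFGRD library was left out PLIN4 did not pass the filter. In MFGRD against MFGR the log2 fold change of PLIN4 was 4.24 ± 0.74 SE (adjusted p = 0.0218). In FCD against FC, PLIN4 had too few values of at least 10 to be tested. An exact two-sided permutation test of the 4 against 4 libraries gave p = 0.0571, and the bound was at least 12.1-fold. With no filter on low values and without FCD replicate 4, a setting chosen after seeing the data, PLIN4 was called in FCD against FC (log2 fold change 6.89, adjusted p = 0.0105).

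PLIN5, which links droplets to mitochondria, was listed at 0 in 15 of 16 preadipocyte libraries and reached 1.42 in MC replicate 4. After differentiation the values of PLIN5 were 4.45, 1.46, 9.36 and 4.64 in MCD. In each of the other differentiated groups, 2 of the 4 libraries were at 0 and the others were between 1.07 and 21.2, the highest being FFGRD replicate 3. A value of 3 reads in these libraries is 2.09 to 5.41, so many of the PLIN5 values stand for few reads. PLIN5 failed the filter in all comparisons. The exact two-sided permutation test of MCD against MC gave p = 0.0286, the smallest that 4 against 4 libraries can give. All 4 MCD libraries lay above the MC libraries, but MCD replicate 2 (1.46) and MC replicate 4 (1.42) each stand for about 1 read. The order of these 2 libraries, and so this p, rests on the normalization. With each MC library taken at 3 reads, PLIN5 was at least 1.18-fold higher in MCD. In each of the other 3 pairs of groups the exact permutation test of PLIN5 gave p = 0.429. With no filter, PLIN5 was called in the average over the 4 pairs (log2 fold change 1.48 ± 0.37 SE, adjusted p = 0.00338). With each preadipocyte library taken at 3 reads, the bound in that average was 0.713-fold, which sets no minimum increase.

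PLIN2, or adipophilin, covers droplets in many cell types and was present at high values in both stages. It lies on chromosome 2 from 94829750 to 94844371. In preadipocytes PLIN2 had values of 1343, 916, 3039 and 2114 in MC, 5544, 3216, 1976 and 1018 in FC, 1785, 699, 695 and 562 in MFGR, and 10160, 1083, 741 and 979 in FFGR. The differentiated libraries had 5251, 12220, 8944 and 20770 in MCD, 5574, 8291, 3973 and 4833 in FCD, 8770, 7549, 3199 and 8670 in MFGRD, and 9970, 4803, 9335 and 9590 in FFGRD. Only 2 of 16 differentiated libraries exceeded FFGR replicate 1, but the groups did not overlap in MCD against MC and in MFGRD against MFGR.

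PLIN2 rose 4.78-fold on average (95% CI 3.06 to 7.48, log2 fold change 2.26 ± 0.32 SE, adjusted p = 2.6e-06). It was called in MCD against MC (2.64 ± 0.48 SE, adjusted p = 0.0117) and in MFGRD against MFGR (2.97 ± 0.47 SE, adjusted p = 0.014). The changes of PLIN2 in FCD against FC (log2 fold change 1.16 ± 0.51 SE, adjusted p = 0.395) and in FFGRD against FFGR (2.27 ± 0.80 SE, adjusted p = 0.203) were not called. Without FFGR replicate 1 the latter was 3.13 and was called (adjusted p = 0.0253). Unlike PLIN1, PLIN2 had a smaller spread after differentiation, with an SD within groups of 0.64 on the log2 scale against 1.15 in preadipocytes, and FCD replicate 4 (4833) was within the range of the other differentiated libraries.

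PLIN3, a perilipin found in the cytosol and on small droplets, overlapped between the stages in every pair of groups. Its value was 172 to 710 in preadipocytes (median 279) and 213 to 885 after differentiation (median 363). The average log2 fold change of PLIN3 was 0.37 ± 0.21 SE (95% CI -0.07 to 0.80) and was not called (adjusted p = 0.202).

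CIDEC promotes the fusion of droplets and lies on chromosome 19 from 17864198 to 17872065. Its value in preadipocytes was 0 to 18.9 (median 1.38), with FFGR replicate 3 the highest. After differentiation CIDEC had values of 18.8, 261, 154 and 67.1 in MCD, 15.2, 17.2, 62.9 and 0.709 in FCD, 328, 10.0, 11.7 and 15.5 in MFGRD, and 32.03, 9.41, 409 and 5.29 in FFGRD. The groups did not overlap in MCD against MC and in MFGRD against MFGR, and 7 of 16 differentiated libraries exceeded all preadipocyte libraries. The average increase of CIDEC was 11.2-fold (95% CI 4.71 to 26.4, log2 fold change 3.48 ± 0.61 SE, adjusted p = 5.48e-05). It was called in MCD against MC (log2 fold change 5.49 ± 0.92 SE, adjusted p = 0.00807). In MFGRD against MFGR it was not called (3.14 ± 1.09 SE, adjusted p = 0.191), whereas it was with the replicate number as a block (adjusted p = 0.0372) and with the slope on genomic span as a covariate (log2 fold change 3.08, adjusted p = 0.0299). With that covariate the average was 3.46 (adjusted p = 5.81e-07), and without the libraries with a steep slope it was 3.18. CIDEC was not tested in the females, where the exact two-sided permutation test gave p = 0.0857 for FCD against FC and p = 0.143 for FFGRD against FFGR. The 2 highest CIDEC values, in FFGRD replicate 3 and MFGRD replicate 1, come from libraries with a steep slope, and CIDEC moved with the slope, as given below.

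FITM2 (chromosome 13, from 75870961 to 75874222) acts in the endoplasmic reticulum where droplets form. It ranged from 19.9 to 75.7 in preadipocytes and from 50.8 to 407 after differentiation. Its values were 77.6, 407, 294 and 149 in MCD, 73.7, 119, 67.9 and 50.8 in FCD, 128, 62.7, 60.2 and 54.5 in MFGRD, and 179, 84.1, 163 and 53.9 in FFGRD. FITM2 rose 2.16-fold on average (95% CI 1.56 to 2.97, log2 fold change 1.11 ± 0.23 SE, adjusted p = 0.000342). In single pairs of groups it was called in MCD against MC (1.90 ± 0.49 SE, adjusted p = 0.0451). That call was lost with no filter, with the stricter filter, after rescaling, with the slope as a covariate, for single transcripts, without the libraries with a steep slope, and in 7 of 8 fits that left out 1 library, with adjusted p from 0.0503 to 0.173. FITM2 was not called in FCD against FC (0.37 ± 0.35 SE), MFGRD against MFGR (0.67 ± 0.41 SE) or FFGRD against FFGR (1.49 ± 0.54 SE), with adjusted p from 0.215 to 0.729.

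FITM1, which is best known from muscle, had values of 0 to 10.9 in all libraries and failed the filter in all comparisons. No differentiated library exceeded the highest preadipocyte library (FC replicate 3). The 4 exact permutation tests gave p between 0.286 and 0.771.

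BSCL2 (chromosome 21, from 42880340 to 42890036) overlapped between the stages in each pair of groups, at 210 to 819 in preadipocytes and 165 to 929 after differentiation. Its average log2 fold change was -0.29 ± 0.22 SE (95% CI -0.74 to 0.15, adjusted p = 0.339). HILPDA, a hypoxia-induced inhibitor of the lipase ATGL, is listed as 1 transcript with a genomic span of 216 bases on chromosome 4. It had values of 2.09 to 22.2 in preadipocytes and 2.86 to 32.7 after differentiation, and its average log2 fold change of 0.12 ± 0.37 SE (95% CI -0.64 to 0.87) was not called (adjusted p = 0.852). The 95% intervals of the average fold change run from 0.953 to 1.74 for PLIN3, from 0.6 to 1.11 for BSCL2 and from 0.642 to 1.83 for HILPDA. With the slope on genomic span as a covariate the log2 fold changes of PLIN3 and BSCL2 were 0.36 (adjusted p = 0.0131) and -0.30 (adjusted p = 0.0247), and without the libraries with a steep slope they were 0.44 (adjusted p = 0.0157) and -0.41 (adjusted p = 0.0349), all below the fold change required for a call. With library weights BSCL2 was called lower in FFGRD against FFGR (log2 fold change -1.27, adjusted p = 0.0293).

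In the single pairs of groups, the count of genes called fell from 5 in MCD against MC to 0 in FCD against FC. In MCD against MC, 5 of 7 genes tested were called higher (PLIN1, PLIN2, PLIN4, CIDEC and FITM2), against 3.33% of all genes tested, with 4.21% called lower and 7.53% in either direction. In MFGRD against MFGR, 3 of 7 were called higher (PLIN1, PLIN2 and PLIN4), against 1.22% (lower 2.16%, either direction 3.38%). In FFGRD against FFGR, 2 of 6 were called higher (PLIN1 and PLIN4), against 0.914% (lower 1.76%, either direction 2.67%). In FCD against FC, limma called 0 of 6, against 0.181% called higher, 0.249% lower and 0.43% in either direction. There, 2 of the 6 (PLIN1 and PLIN2) had an unadjusted p below 0.05, as did 12.6% of all genes. In the other 3 comparisons, in the order given, these were 5 of 7 (24% of all genes), 4 of 7 (15.6%) and 4 of 6 (15.5%). In the female controls, without FCD replicate 4 PLIN1 was called. A fit of all 8 groups together called PLIN1 and PLIN4 in FCD against FC. Among the genes tested, the differentiated and preadipocyte libraries did not overlap for 5 of 7 in the male controls (7.59% of all genes were higher without overlap), 0 of 6 in the female controls (4.95%), 4 of 7 in growth-restricted males (4.84%) and 2 of 6 in growth-restricted females (5.01%). Over all 32 libraries this held for 0 of the 8 genes tested and for 0.44% of all genes. In a single pair, a gene below 10 in all 4 preadipocyte libraries was tested only if all 4 differentiated libraries reached 10. Its groups could then not overlap. Such genes were PLIN4 and CIDEC in both male pairs and PLIN4 in growth-restricted females. In the female controls PLIN4 and CIDEC were not tested, because FCD replicate 4 was low. The contrast of 5 of 7 with 0 of 6 was thus partly set by the filter.

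These counts depended on single libraries. Leaving out MCD replicate 1 gave 3 calls and leaving out MCD replicate 2, 3 or 4 gave 2. In the growth-restricted males the count was 0 without MFGR replicate 2 or MFGRD replicate 2 and 1 without MFGRD replicate 3. In the growth-restricted females it was 1 without FFGR replicate 1 or FFGRD replicate 4, and 0 without FFGR replicate 2, 3 or 4 or FFGRD replicate 1, 2 or 3. Without the libraries with a steep slope, PLIN1 was the 1 gene called in MCD against MC (log2 fold change 6.50, adjusted p = 0.0304), where PLIN2 was at 2.03 (adjusted p = 0.089) and PLIN4 and CIDEC no longer passed the filter. PLIN1 and PLIN2 were called in MFGRD against MFGR (3.23 and 3.19), and 0 genes in FFGRD against FFGR. When the replicate number entered as a block, the members called were 5 in MCD against MC and 0 in FCD against FC, and CIDEC was added in MFGRD against MFGR, giving 4. The block moved the calls over all genes more, from 874 to 1854, from 50 to 197 and from 393 to 2081 in these comparisons.

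**Figure D2:**
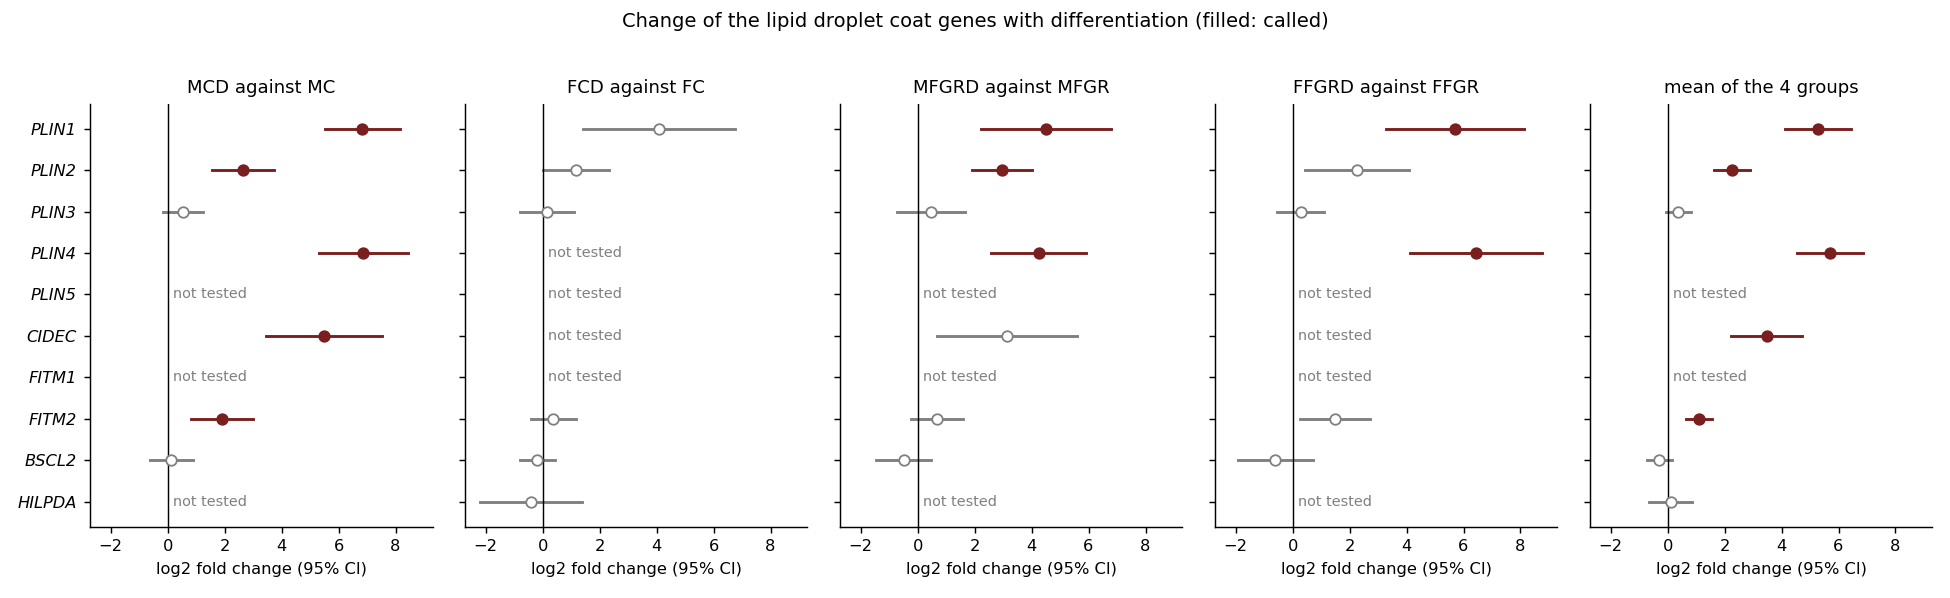
Log2 fold changes with 95% confidence intervals of the 10 genes in the 4 differentiation comparisons and in their average. Filled points were called and open points were not, and genes below the filter are marked as not tested. In the average, PLIN1 (5.28), PLIN4 (5.70), CIDEC (3.48), PLIN2 (2.26) and FITM2 (1.11) were called, whereas the intervals of PLIN3, BSCL2 and HILPDA include 0.

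Growth restriction was examined within each stage and sex. No gene of the 10 was called by limma in MFGR against MC, FFGR against FC, MFGRD against MCD or FFGRD against FCD, nor in the averages over the sexes, and 0% of all genes were called in these 6 comparisons. An unadjusted p below 0.05 was reached by 0 of 5 in MFGR against MC (1.58% of all genes), 0 of 5 in FFGR against FC (0.745%), 0 of 8 in FFGRD against FCD (0.973%), and in the averages by 0 of 6 in preadipocytes (2.52%) and 0 of 8 after differentiation (0.721%). In MFGRD against MCD, 1 of 7 genes tested had an unadjusted p below 0.05 (1.46% of all genes). This gene was FITM2, with 3 of 4 MFGRD libraries below all MCD libraries and a log2 fold change of -1.42 (95% CI -2.62 to -0.22, adjusted p = 0.9998). PLIN1 was below all MCD libraries in 3 of 4 MFGRD libraries and above them in MFGRD replicate 1, with a log2 fold change of -2.04 (95% CI -4.44 to 0.37). CIDEC showed the same arrangement (-1.54, 95% CI -4.12 to 1.03), and that of PLIN4 was -1.69 (95% CI -3.49 to 0.12). The median over the 7 genes was -1.42, against 0.02 for all genes. MFGRD replicate 1 is the library of this group with a steep slope. Without the steep libraries (MCD replicates 2 and 4 and MFGRD replicate 1) the log2 fold changes were -2.79 for PLIN1, -2.15 for PLIN4, -2.07 for CIDEC and -1.34 for FITM2. Of these PLIN1, and no longer FITM2, had an unadjusted p below 0.05, and none was called (adjusted p = 0.995). In FFGRD against FCD the log2 fold changes of PLIN1 and PLIN4 were 1.93 (95% CI -1.56 to 5.42) and 1.19 (95% CI -2.65 to 5.02), but without FCD replicate 4 they were 0.61 and -0.45. In preadipocytes the intervals were narrower for PLIN1 than after differentiation, and the largest change was that of PLIN2 in MFGR against MC (-1.004, adjusted p = 0.991). Without the steep library of MFGR it was -1.37, with an unadjusted p below 0.05 and an adjusted p of 0.999 in limma.

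Male and female libraries were compared in the same way. None of the 10 genes was called by limma in the 4 comparisons of males with females or in their 2 averages, with 0% of all genes called. The unadjusted p was below 0.05 for 0 of 5 in MC against FC (1.26% of all genes), 0 of 5 in MFGR against FFGR (1.24%), and in the averages for 0 of 6 in preadipocytes (3.87%) and 0 of 8 after differentiation (0.779%). In MCD against FCD, 3 of 7 genes tested had an unadjusted p below 0.05, against 3.85% of all genes. They were PLIN1 (log2 fold change 3.03, 95% CI 0.30 to 5.75), CIDEC (2.68, 95% CI 0.19 to 5.17) and FITM2 (1.37, 95% CI 0.19 to 2.54), each with an adjusted p of 0.873. Without FCD replicate 4 the log2 fold changes were 1.70, 1.69 and 1.19, and PLIN1 alone had an unadjusted p below 0.05. Without the steep libraries they were 2.75, 2.195 and 1.24, and 0 of 7 had an unadjusted p below 0.05. In preadipocytes without them PLIN2 was at -2.28 in MFGR against FFGR and at -1.35 in the average, where it had an unadjusted p below 0.05 in both and an adjusted p of 0.998 and 0.682 in limma. With all libraries these 2 log2 fold changes of PLIN2 were -1.01 and -0.78. Without the steep libraries FFGR kept only replicates 1 (10160) and 4 (979). The larger values therefore rest in good part on FFGR replicate 1, the highest PLIN2 value among the preadipocytes. In MCD against FCD, with all libraries, the log2 fold change of PLIN2 was 0.94 (95% CI -0.06 to 1.93). In MFGRD against FFGRD, 0 of 8 genes had an unadjusted p below 0.05 (0.322% of all genes), and PLIN1 and PLIN4 had log2 fold changes of -0.94 (95% CI -4.24 to 2.35) and -0.66 (95% CI -3.22 to 1.90).

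The response to differentiation itself was compared between groups, because a call in one pair of groups and not in another does not show that they differ. In 5 such comparisons limma called 0 of 8 genes, and 0% of all genes. For PLIN4 the response of the growth-restricted males minus that of the male controls was -2.62 on the log2 scale (95% CI -4.87 to -0.38, unadjusted p = 0.025, adjusted p = 0.966), and PLIN4 was the only member of 8 with an unadjusted p below 0.05, against 1.6% of all genes. The corresponding differences were -2.34 (95% CI -5.01 to 0.33) for PLIN1 and -1.23 (95% CI -2.62 to 0.16) for FITM2. Against the mean of the other 3 pairs, the response of MFGR differed by -1.05 (95% CI -3.69 to 1.599) for PLIN1 and -1.94 (95% CI -4.64 to 0.76) for PLIN4. Without FCD replicate 4 the latter was -2.49 ± 1.00 SE, with an unadjusted p of 0.0193 in the limma fit and an adjusted p of 0.9999. Between male and female controls, FITM2 was the only member of 8 with an unadjusted p below 0.05 (difference 1.53, 95% CI 0.24 to 2.81, adjusted p = 0.885, 1.73% of all genes). PLIN1 and PLIN2 differed there by 2.76 (95% CI -0.29 to 5.80) and 1.48 (95% CI -0.09 to 3.06), and without FCD replicate 4 the difference was 1.43 for PLIN1 and 1.35 for FITM2, and 0 of 8 members had an unadjusted p below 0.05. Between growth-restricted and control females, FITM2 differed by 1.11 (95% CI -0.22 to 2.44), and between growth-restricted males and females, PLIN4 differed by -2.19 (95% CI -4.99 to 0.61). In these and in the comparison of MFGR with the others, 0 of 8 members had an unadjusted p below 0.05 (0.326%, 0.408% and 0.581% of all genes). Without the steep libraries 0 members were called by limma in the 5 comparisons, and the difference of MFGR from MC was -3.20 for PLIN4 and -3.27 for PLIN1. These had an unadjusted p below 0.05, as did FITM2 between male and female controls (1.45) and HILPDA and PLIN2 in MFGR against the others (1.97 and 1.72), while all adjusted p were above 0.99. The comparisons of MFGR with MC and of MC with FC share the MC and MCD libraries. In preadipocytes PLIN4 was 1.24 to 5.31 in MFGR, 0 to 2.88 in MC, 0 to 2.31 in FC and 0 to 0.94 in FFGR. These values stand for few reads, and the differences in response of PLIN4 rest partly on them. After differentiation its log2 fold change was -0.66 in MFGRD against FFGRD and -1.69 in MFGRD against MCD. For PLIN2, the value of 1.72 has only replicates 1 (10160) and 4 (979) for FFGR.

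The table lists several transcripts for 3 of the genes. PLIN1-201 and PLIN1-202 both begin at 18508861 on chromosome 18 and end at 18518362 and 18520637, so most of their span is shared and their values are estimates of a split. In the 15 differentiated libraries with a PLIN1 value of at least 50, PLIN1-202 held a median of 76.6% of the value (33.9% to 100%). MCD replicate 3 was the only one of these in which PLIN1-201 held more (66.1%, 3593 against 1844). In preadipocytes PLIN1-201 was listed at 0 in 12 libraries, among them all MC and MFGR libraries, and PLIN1-202 in 3 of the others. Both transcripts were called in the average over the 4 pairs, PLIN1-201 with a log2 fold change of 6.50 (adjusted p = 5.15e-07) and PLIN1-202 with 5.48 (adjusted p = 1.37e-05). Of 13 member transcripts tested there, 10 were called, against 19.8% of all transcripts. In single pairs these were 7 of 12 in MCD against MC (2.83%), 0 of 11 in FCD against FC (0.143%), 3 of 10 in MFGRD against MFGR (1.32%) and 0 of 11 in FFGRD against FFGR (0.616%).

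PLIN2 has 5 transcripts, of which PLIN2-204 and PLIN2-203 held the largest shares, with medians of 44.7% and 30.0% in preadipocytes and 48.9% and 35.8% after differentiation. PLIN2-201, which has the lowest start coordinate (94829750), held 17.8% in preadipocytes and 10.2% after differentiation. All 5 were called in the average, and PLIN2-201 had the smallest log2 fold change (1.32 ± 0.38 SE, adjusted p = 0.0125), the others being between 2.32 and 2.51. The difference between transcripts was not tested. Of the 2 CIDEC transcripts, CIDEC-202 held 100% in each of the 6 differentiated libraries with a CIDEC value of at least 50.

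**Figure D3:**
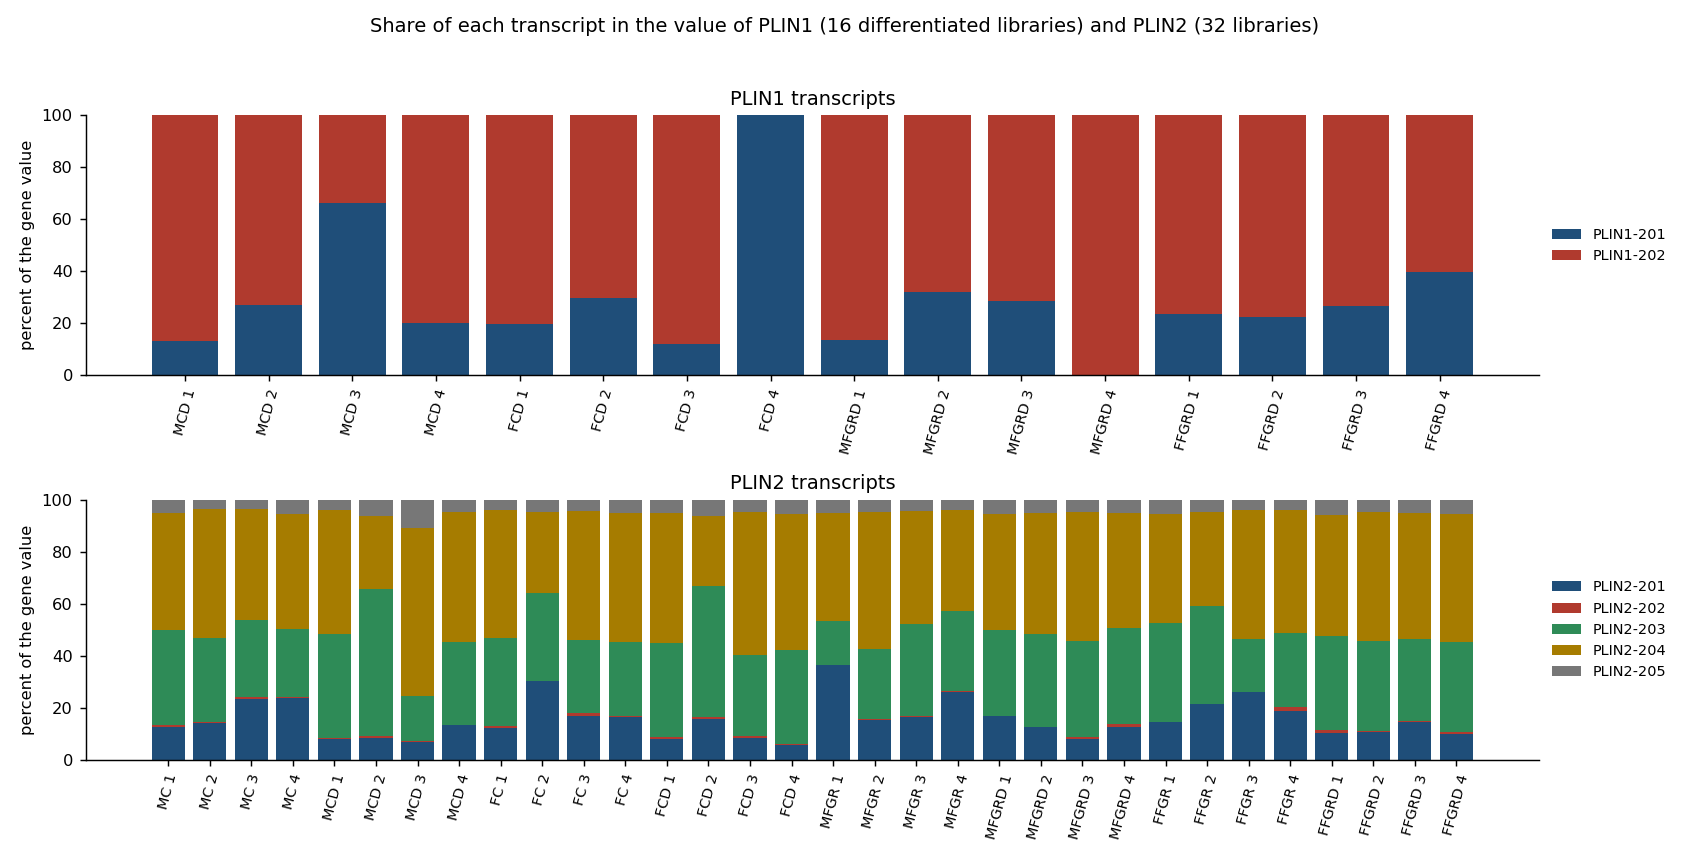
Share of each transcript in the value of PLIN1 in the 16 differentiated libraries (top) and of PLIN2 in the 32 libraries (bottom), in percent. PLIN1-202 holds most of the PLIN1 value except in MCD replicate 3 and in FCD replicate 4, where the gene value is only 19.0. The median share of PLIN2-201 is 17.8% in preadipocytes and 10.2% after differentiation.

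PLIN4, CIDEC and FITM2 varied with PLIN1 among the differentiated libraries. Over the 16 libraries, PLIN1 was correlated with PLIN4 (Pearson's r = 0.92, Spearman's rho = 0.88, adjusted permutation p = 3.5e-05 and 0.00021), with CIDEC (r = 0.86, rho = 0.82, adjusted permutation p = 3.5e-05 and 0.000467) and with FITM2 (r = 0.74, rho = 0.84, adjusted permutation p = 0.00264 and 0.000385). The p-values were adjusted over 7 relations. The smallest unadjusted p that 100000 permutations can give is 1e-05, reached for Pearson's r of PLIN4 and CIDEC. Leaving out FCD replicate 4 and MFGRD replicate 1, which are farthest from the median of PLIN1, r was 0.89, 0.78 and 0.76, respectively. Centred within the groups r was 0.92, 0.84 and 0.67, and over the 11 differentiated libraries without a steep slope it was 0.98, 0.88 and 0.80.

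PLIN1 and PLIN2 were less closely related (r = 0.38, rho = 0.44, adjusted permutation p = 0.168 and 0.101). The relation of PLIN1 with BSCL2 (r = 0.61, rho = 0.63, adjusted permutation p = 0.0227 and 0.018) was 0.46 over the 11 libraries without a steep slope. That of PLIN3 (r = 0.52, rho = 0.53, adjusted permutation p = 0.054 and 0.049) fell to 0.37 without the 2 farthest libraries, and that of HILPDA (r = 0.33, rho = 0.28, adjusted permutation p = 0.218 and 0.294) to 0.08. All libraries share the authors' normalization.

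**Figure D4:**
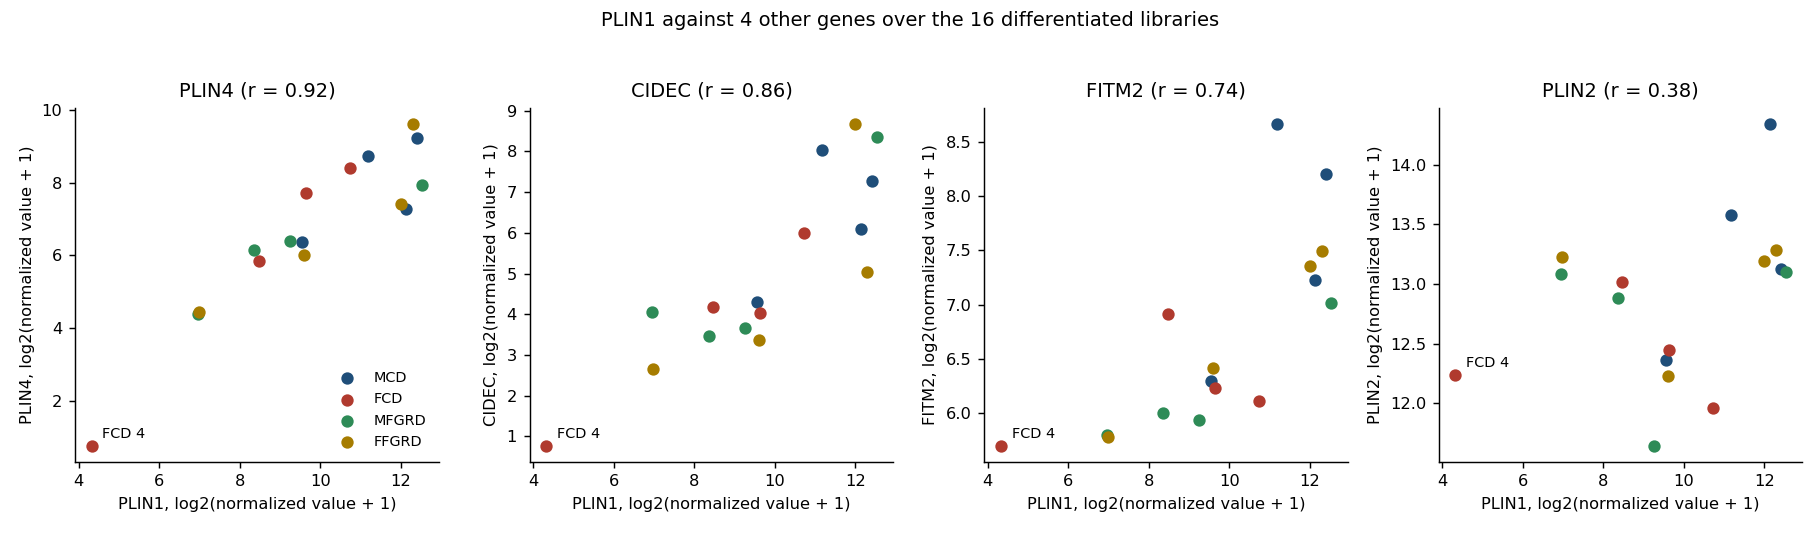
PLIN1 against PLIN4, CIDEC, FITM2 and PLIN2 in the 16 differentiated libraries, as log2(normalized value + 1), with 1 point per library coloured by group. PLIN4 rises with PLIN1 along the whole range (r = 0.92), and PLIN2 shows little relation (r = 0.38). FCD replicate 4 is at the low end of PLIN1, PLIN4, CIDEC and FITM2 but not of PLIN2.

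The genes most like each member were sought among 10619 named genes over all 32 libraries and among 10125 over the 16 differentiated libraries. The first search is dominated by the difference between the stages, and the correlations are descriptive. Over all libraries PLIN1 was closest to ACSL1 (r = 0.98), an enzyme that activates fatty acids, followed by DGAT2 and THRSP. Among the differentiated libraries it was closest to ADIPOQ (r = 0.99), which codes for adiponectin, followed by ACSL1 and PPP1R1B. PLIN4 was closest to PLIN1 itself and KLB, a co-receptor of fibroblast growth factors (both r = 0.96), then ACSL1, and among the differentiated libraries to KLB (r = 0.97), ITGA6 and ADIPOQ. CIDEC was closest to ADIPOQ (r = 0.92) over all libraries and to THRSP (r = 0.95) and GPD1 (r = 0.93) among the differentiated ones. PLIN2 had a different set, with BTG1 (r = 0.89), PDK3 and CCND3 over all libraries and IST1 (r = 0.87), RRAGA and SHMT1 among the differentiated ones. FITM2 was closest to RTN3 (r = 0.89) and, among the differentiated libraries, to SLC25A25 (r = 0.97). PLIN3 was closest to ISOC2 (r = 0.92) and EVA1B (r = 0.94), BSCL2 to IDH3B (r = 0.91) and PSMB10 (r = 0.97), and HILPDA to APBA3 (r = 0.78) and NOTCH4 (r = 0.90), in the same order of searches.

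Other genes of the pathway were followed with the same test in the average over the 4 pairs, for which 12.4% of all genes were called higher and 14.8% lower. Of 9 genes of triglyceride synthesis tested (11 listed), 5 were called higher and 0 lower, with a median log2 fold change of 2.42. They include DGAT2, the acyltransferase of the last step (at least 87.8-fold higher, fitted log2 fold change 7.15), MOGAT1 (4.23), GPAT3 (3.61) and GPAM (2.82). Of 4 lipolysis genes tested (6 listed), 3 were called higher, the hormone-sensitive lipase LIPE (5.12), the lipase ATGL, coded by PNPLA2 (2.48), and its activator ABHD5 (1.14), and the median was 1.81. Among 12 other droplet proteins tested (17 listed), CAV1, the main protein of caveolae, was higher (1.47) and CIDEB, a relative of CIDEC, was lower (-2.23), 10 were not called, and the median was 0.19. Of 14 regulators tested (15 listed), 6 were called higher and 1 lower, with a median of 0.49. The largest increases among them were those of CEBPA (4.02), MLXIPL (3.01, at least 3.67-fold), PPARG (2.26), the receptor that controls fat cell genes, and PPARGC1A (1.46).

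Some markers of other cells moved with the stage as well, and their part in the results was not tested. Of the stromal markers 2 of 7 tested were called higher and 3 lower, and their sum was 11230 to 74350 in preadipocytes and 3462 to 30560 after differentiation. Of 3 leukocyte markers tested, CD14 and CD163 were higher and CD68 was lower, and the sum of the 6 listed was 88.4 to 1038 and 122 to 942. The untested PTPRC, AIF1 and CSF1R had medians of 0, 0 and 1.04 in preadipocytes and 0, 0.41 and 0.39 after differentiation. The 3 genes of adrenal steroid synthesis (STAR, CYP11A1 and CYP17A1) were all called higher, from a sum of 1.39 to 89.0 to one of 12.8 to 1353. Of 4 endothelial markers tested KDR was lower (sum 10.1 to 92.7 and 5.84 to 286), of 2 mesothelial markers none was called (sum 2.03 to 156 and 0.705 to 127), and of the muscle markers only DES was tested and was lower (sum 10.2 to 2307 and 0 to 166).

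Several of the genes moved with the slope of the values on genomic span, in 16 relations adjusted together. The slope is itself computed from the values of all transcripts that passed the filter, so a relation with it need not be particular to these genes. The share of all genes with a like relation is not given here. BSCL2 was higher in libraries with a steeper slope both after differentiation (r = -0.90, rho = -0.72, adjusted permutation p = 0.00024 and 0.0119) and in preadipocytes (r = -0.85, rho = -0.73, adjusted permutation p = 0.00032 and 0.0119). PLIN3 showed the same (r = -0.73, rho = -0.68, adjusted permutation p = 0.00325 and 0.017, and in preadipocytes r = -0.92, rho = -0.85, adjusted permutation p = 0.00024 and 0.00224). For CIDEC r was -0.69 (rho = -0.55, adjusted permutation p = 0.00679 and 0.064) and in preadipocytes -0.78 (rho = -0.67, adjusted permutation p = 0.00188 and 0.017). HILPDA was related to the slope after differentiation (r = -0.66, rho = -0.66, adjusted permutation p = 0.0103 and 0.0197). Within the 11 differentiated libraries above -0.8, r was -0.27 for BSCL2, -0.34 for PLIN3, -0.02 for CIDEC and -0.16 for HILPDA, so these relations rest on the libraries with a steep slope. Within the 12 such preadipocyte libraries it was -0.73 for BSCL2, -0.72 for PLIN3 and -0.64 for CIDEC. Leaving out the 2 libraries whose slope was farthest from the median, r of these 4 genes was between -0.81 and -0.47 after differentiation and, for BSCL2, PLIN3 and CIDEC, between -0.89 and -0.81 in preadipocytes.

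For PLIN4 the relation with the slope was weak (r = -0.21, rho = -0.14, adjusted permutation p = 0.539 and 0.633 after differentiation), and for PLIN1 it was r = -0.44 (rho = -0.33, adjusted permutation p = 0.129 and 0.268). PLIN2 was related to it after differentiation (r = -0.60, rho = -0.53, adjusted permutation p = 0.0258 and 0.064). FITM2 moved in opposite directions in the 2 stages, with r = -0.56 after differentiation (rho = -0.41, adjusted permutation p = 0.0386 and 0.179) and r = 0.76 in preadipocytes (rho = 0.54, adjusted permutation p = 0.00325 and 0.064). Without the steep libraries these were -0.31 for PLIN2 and, for FITM2, -0.25 and 0.47. With the slope as a covariate the average over the 4 pairs still had 5 members called.

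**Figure D5:**
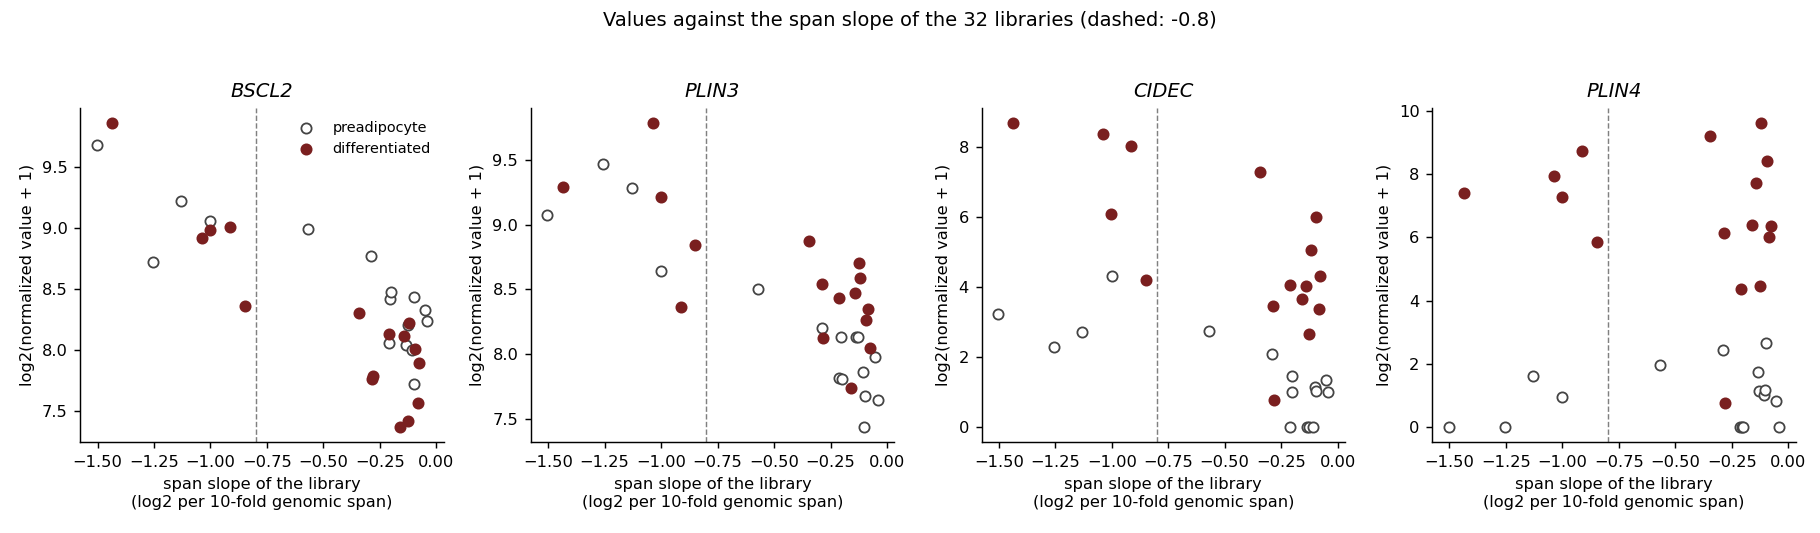
Values of BSCL2, PLIN3, CIDEC and PLIN4, as log2(normalized value + 1), against the slope of the log2 values of each library on the log10 genomic span of its transcripts. Open points are the 16 preadipocyte and filled points the 16 differentiated libraries, and the dashed line marks -0.8. BSCL2 and PLIN3 are higher towards steep slopes in both stages, whereas PLIN4 separates the stages at every slope except for FCD replicate 4.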

How the data were processed

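RNA-seq was carried out on 32 libraries, 4 for each of 8 groups, which were assigned by the sample titles and the column names. The labels describe RNA extraction from adipose tissue, and the methods describe preadipocyte and differentiated cell pellets. Reads of low mean quality were removed by the authors, who estimated transcript abundance with Salmon on Oar_rambouillet_v1.0 (Ensembl) and used DESeq2 for normalization. The signal values deposited by the authors are these normalized transcript counts, which are no longer whole reads. Their group means, fold changes and p-values are also in the table and were not used. The submitters' processing notes give FastQC 0.11.9.

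Transcripts were summed per gene. The depth was estimated from the smallest values above 0 in each library, taken as 1 read, and counting error rises as values fall towards 1 read. The sums were compared as log2(value + 1) with limma 3.58.1 in R 4.3.3 (empirical Bayes trend), over genes that reached 10 in 4 or more of the libraries compared, with Benjamini-Hochberg adjustment over all genes. Fold changes are on this scale and understate those of low genes. Comparisons of 2 groups used their 8 libraries, and averages and differences in response used 16 or 32. Genes below the filter were compared by exact permutation tests (70 regroupings). The procedure was tested on simulated data. The members and gene lists were chosen with earlier results of these data known. All 10 members are named. Of the other lists (triglyceride synthesis, lipolysis, other droplet proteins, regulators) up to 4 called genes with the largest change are named, and for each member the 3 genes most alike. Marker lists cover adipocytes, stroma, endothelium, leukocytes, mesothelium, skeletal muscle and adrenal cortex.

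Replicate numbers recur between groups. Libraries of the same number deviated together in MCD and MC (r = 0.162 to 0.615), FCD and FC (0.303 to 0.508) and MFGRD and MFGR (0.393 to 0.671), and each correlated best with its own number, so a fit with the number as a block is given where it changed a call. In FFGRD and FFGR this was not so (-0.398 to 0.565). Libraries of the same number in FFGR and FC, which are from different fetuses, had r of 0.713, 0.763, -0.284 and 0.461 for replicates 1 to 4. Agreement by number therefore does not by itself show a shared fetus. The other alternatives were a pseudocount of 0.1, no filter, a filter of 50, quantile normalization, rescaling to the same sum, single transcripts, library weights, the span slope as a covariate, 1 fit of all 8 groups and leaving out each library. Sequences and transcript lengths were not used here, so levels are not compared between genes.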

Additional observations from a re-analysis of the deposited data

Results flagged for a closer look

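In 10 of 77 groups of 4 libraries tested, 1 library lay far from the other 3 of its group (Dixon's test at the 95% level). Chance flags about 1 in 20 groups of continuous values, a rate that does not hold for groups with several libraries at 0. PLIN1 was low in MC replicate 2 (11.1, against 25.7 to 27.5 in the others). PLIN2 was high in FFGR replicate 1 (10160), and it was low in MFGRD replicate 3 (3199) and in FFGRD replicate 2 (4803). CIDEC and FITM2 were both high in MFGRD replicate 1 (328 and 128), a library with a steep span slope (-1.04). HILPDA was low in MC replicate 2 (3.37). In the genes near the limit of detection, PLIN4 was 2.31 in FC replicate 4 and PLIN5 was 1.42 in MC replicate 4, with the other libraries of the group listed at 0, and FITM1 was listed at 0 in FFGR replicate 2. Where the other 3 libraries are at 0, any value above 0 is flagged, so the flags of PLIN4 and PLIN5 were fixed in advance.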

How the results depend on the processing

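In the average over the 4 pairs of groups, 5 members were called in the main setting and 5 to 6 in 42 other fits (6 with no filter, which added PLIN5), and PLIN1, PLIN2, PLIN4, CIDEC and FITM2 were called in all 205 of their refits. Outside the differentiation comparisons 0 members were called in 402 refits of 17 comparisons. In single pairs the counts moved. They were, in MCD against MC (main 5), 3 with the stricter filter of 50, 1 without the libraries of steep slope (chosen after seeing the data) and 2 to 4 on leaving out a library. In FCD against FC (main 0) they were 2 with library weights, 2 with 1 fit of all 8 groups and 0 to 1 on leaving out a library. In MFGRD against MFGR (main 3) they were 1 with the stricter filter, 1 for single transcripts, 2 without the libraries of steep slope and 0 to 2 on leaving out a library. In FFGRD against FFGR (main 2) they were 1 with the stricter filter, 0 for single transcripts, 4 with library weights, 4 with 1 fit of all 8 groups, 0 without the libraries of steep slope and 0 to 1 on leaving out a library. A library left out also leaves fewer members past the filter. Otherwise the cause was not tested.

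Directions reversed in members that were not called. BSCL2 in MCD against MC (main 0.13) was -0.32 with the slope as a covariate, -0.32 without the libraries of steep slope and -0.023 to 0.35 on leaving out a library, and in FCD against FC (main -0.20) it was 0.10 after rescaling. PLIN3 in FFGRD against FFGR (main 0.28) was -0.039 with library weights. PLIN4 in FFGRD against FCD (main 1.19) was -0.64 with library weights. HILPDA in the average (main 0.12) was -0.044 with library weights and -0.39 without the libraries of steep slope. On leaving out a library PLIN3 in FCD against FC ranged from -0.046 to 0.56, HILPDA there from -0.60 to 0.022 and in the average from -0.036 to 0.25, and PLIN4 in FFGRD against FCD from -0.45 to 2.10 and in MFGRD against FFGRD from -1.46 to 0.26.

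Calls over all genes moved by more than 1.5 times. In MCD against MC (874) they were 2052 with library weights, 1854 with the replicate block, 448 for transcripts, 195 without the libraries of steep slope and 311 to 1746 on leaving out a library. In FCD against FC (50) they were 27 with no filter, 28 with the stricter filter, 18 after rescaling, 23 for transcripts, 1504 with weights, 363 with the slope, 197 with the replicate block, 321 with 1 fit, 209 without the steep libraries and 0 to 95 on leaving out a library. In MFGRD against MFGR (393) they were 260 with the stricter filter, 210 for transcripts, 1344 with weights, 1610 with the slope, 2081 with the replicate block, 654 with 1 fit and 77 to 317 on leaving out a library. In FFGRD against FFGR (310) they were 152, 98, 4138, 1952, 182, 1315 and 26 to 259 in the same order, and 2 without the steep libraries. After rescaling, the median log2 fold change over all genes went from 0.02 to 0.31 in FCD against FC, with 88.9% of calls higher against 42.0%, and from 0.04 to 0.16 in the average, with 55.8% against 45.4%. In FFGRD and FFGR the replicate numbers did not pair the libraries, and the replicate block left 2 members called. The block changed no member call other than that of CIDEC in MFGRD against MFGR. PLIN5 and FITM1 did not pass the filter on low values.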
